A study of Mus musculus with 14 samples.

Results

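The transcripts described here are those of Spp1, Clu and the osteopontin receptor Cd44, 3 genes of the 20377 symbols in the deposited expression table. They were taken by symbol, each from its transcript row with the highest mean, and were chosen with their levels in these groups known. Their levels and the differences between groups are therefore a description, with no test. Spp1 encodes osteopontin, a secreted acidic phosphoprotein that binds integrins through an Arg-Gly-Asp motif and also binds CD44. Clu encodes clusterin, a secreted chaperone that binds misfolded proteins, lipids and the terminal complement complex. CD44 is a transmembrane receptor for hyaluronan and osteopontin, whose extracellular stem is lengthened when a block of variable exons is kept in the transcript. In the liver, osteopontin is known as a product of biliary epithelium and of reactive ductules.

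RNA was profiled in 14 libraries from livers of C57BL/6 mice. The animals were chimeras whose mature donor hepatocytes carried the red fluorescent marker mTomato, and all groups received 0.1% DDC, a porphyrinogenic toxicant that provokes a ductular reaction, for 5 to 8 weeks, so no library comes from an uninjured liver. Hepatocyte-derived ductal cells (5 libraries) were mTomato-positive donor cells, sorted as MIC1-1C3-positive, of low side scatter and free of CD11b, CD26, CD31 and CD45. The labels call them oval cells. Cholangiocyte-derived ductal cells (5 libraries), labelled cholangiocytes, were host cells without mTomato from the same gate. Hepatocytes of the DDC-treated livers gave 4 libraries. The sources used here do not give what drives mTomato or how many host hepatocytes remain, so the origin rests on the marker alone. Libraries are named by group and number. The labels do not say whether different numbers are different mice, so p-values below reflect the spread among these libraries alone, and that spread may be technical.

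The libraries held the markers of their labels. Summed over 8 listed biliary markers, the level was 791.8 to 1154.9 RPKM in hepatocyte-derived ductal cells, 2471.6 to 3019.7 RPKM in cholangiocyte-derived ductal cells and 21.7 to 58.2 RPKM in hepatocytes. The sum of 8 hepatocyte markers was 4664.3 to 9445.3, 2971.5 to 4410.6 and 44544.4 to 62095.7 RPKM in the same order. Transcripts of other cells stood out most in 3 libraries. In hepatocyte library 118 the sum of 10 macrophage markers was 1396.6 RPKM, against 61.8 to 86.5 RPKM in the other 3 hepatocyte libraries. Its endothelial sum was 219.6 RPKM and its stellate and fibroblast sum 142.4 RPKM, against at most 14.8 and 7.0 RPKM in the others. Its biliary sum of 58.2 RPKM was near that of hepatocyte library 611 (57.8 RPKM). The mean log2(RPKM + 1) of these biliary markers was 2.71 there, against 1.24 to 1.98 in the other hepatocyte libraries. In cholangiocyte-derived ductal libraries 118 and 220 the sum of 9 stellate and fibroblast markers was 400.9 and 463.8 RPKM, against 33.0 to 77.3 RPKM in the other 3. All 5 of these sums lay above those of hepatocyte-derived ductal cells, 9.8 to 28.7 RPKM. Macrophage sums were 64.5 to 408.8 RPKM in cholangiocyte-derived and 55.2 to 176.6 RPKM in hepatocyte-derived ductal cells. Leaving out the 3 libraries therefore does not remove transcripts of other cells from comparisons between the ductal groups. In bulk RNA, fewer cells of a type and less RNA per cell cannot be told apart.

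Spp1 was among the 2 most abundant transcripts of every ductal library and far lower in hepatocytes. Its single transcript row, NM_009263, lies on the plus strand at chr5:104864137-104870069 in mm9, the build of the table. The bases around the codons of the integrin-binding motif are shown because some of the integrins described further on bind there. The motif begins at codon 144 of 294, with the Arg, Gly and Asp codons in capitals (from GENCODE vM21 transcripts, GRCm38, chr5:104439457-104439516, plus strand).
Spp1 codons around Arg-Gly-Asp: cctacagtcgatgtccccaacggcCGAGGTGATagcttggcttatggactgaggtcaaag
In hepatocyte-derived ductal cells Spp1 was at 18846.07, 17358.58, 16079.57, 18405.42 and 17109.36 RPKM in libraries 219, 220, 225, 248 and 611. In cholangiocyte-derived ductal cells it was at 18908.03, 19491.13, 17996.74, 18385.55 and 18310.2 RPKM in libraries 118, 219, 220, 225 and 611. In hepatocytes it was at 1363.77, 846.99, 964.87 and 577.63 RPKM in libraries 118, 225, 248 and 611. The ductal groups overlapped each other, and the lowest ductal library was 11.8 times the highest hepatocyte library.

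The means for Spp1 were 17559.8 ± 1095.9 RPKM in hepatocyte-derived ductal cells, 18618.3 ± 587.6 RPKM in cholangiocyte-derived ductal cells and 938.3 ± 326.7 RPKM in hepatocytes (SD, n = 5, 5 and 4, as for all means below). Hepatocyte-derived ductal cells had 18.7 times the hepatocyte level and cholangiocyte-derived ductal cells 19.8 times. On the log2(RPKM + 1) scale these differences were 4.29 and 4.38, and the difference between the ductal groups was -0.09, about the size of the spread between libraries (SD 0.09). Within the same-numbered ductal libraries 219, 225 and 611 it was -0.05, -0.19 and -0.10, lower in hepatocyte-derived cells in all 3. Spp1 ranked 2 among all symbols in each hepatocyte-derived ductal library, behind Clu. In cholangiocyte-derived ductal cells it ranked 1 in 4 libraries and 2 in library 225, and in hepatocytes it ranked between 51 and 114. It made up 3.65 ± 0.225%, 3.97 ± 0.106% and 0.155 ± 0.0436% of the RPKM summed over symbols.

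Spp1 varied most among hepatocytes, with a coefficient of variation of 34.8%, against a median of 20.2% for the 129 symbols within 2-fold of its level there. The highest hepatocyte value was in library 118, the library with the highest macrophage, stellate and biliary markers of its group. The part of other cells in that value was not tested. With the 3 libraries named above left out, the log2 difference to hepatocytes was 4.49 for hepatocyte-derived and 4.59 for cholangiocyte-derived ductal cells. In library 219 the macrophage sum was at its lowest in both ductal groups, 55.2 RPKM in hepatocyte-derived and 64.5 RPKM in cholangiocyte-derived ductal cells, and Spp1 was at its highest there in both groups.

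Clu was the most abundant transcript in all 5 hepatocyte-derived ductal libraries and was plentiful in hepatocytes too. It lies at chr14:66587320-66600382 in mm9 on the plus strand (NM_013492). Its level in hepatocyte-derived ductal libraries 219, 220, 225, 248 and 611 was 23113.9, 21851.63, 24441.1, 25038.51 and 21114.17 RPKM. In cholangiocyte-derived ductal libraries 118, 219, 220, 225 and 611 it was 17405.28, 19038.94, 17082.58, 21007.77 and 17196.43 RPKM. Hepatocyte libraries 118, 225, 248 and 611 held 5130.42, 4725.22, 5187.48 and 3675.77 RPKM. The 3 groups did not overlap, although the lowest hepatocyte-derived ductal library was only 1.01 times the highest cholangiocyte-derived ductal one.

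Mean Clu was 23111.9 ± 1662.7 RPKM in hepatocyte-derived ductal cells, 18346.2 ± 1685.8 RPKM in cholangiocyte-derived ductal cells and 4679.7 ± 700.2 RPKM in hepatocytes. The ratio to hepatocytes was 4.94 for hepatocyte-derived and 3.92 for cholangiocyte-derived ductal cells, and the ratio between the ductal groups was 1.26. Within the same-numbered ductal libraries 219, 225 and 611 the log2 difference was 0.28, 0.22 and 0.30. Clu ranked between 12 and 15 in hepatocytes, among plasma protein transcripts such as Alb (albumin). No symbol other than Clu ranked above Spp1 in any ductal library. The next most abundant transcript of both ductal groups, Apoe, stood at 4953.9 ± 686.1 RPKM in hepatocyte-derived and 3597.4 ± 114.0 RPKM in cholangiocyte-derived ductal cells.

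Cd44 was expressed at a fraction of the level of its ligand but had a ratio to hepatocytes like that of Spp1. Its highest row, NM_001039151, lies on the minus strand at chr2:102651300-102741822 in mm9. Hepatocyte-derived ductal libraries 219, 220, 225, 248 and 611 held 222.48, 136.02, 224.97, 238.64 and 245.05 RPKM. Cholangiocyte-derived ductal libraries 118, 219, 220, 225 and 611 held 158.71, 174.25, 134.08, 229.71 and 130.8 RPKM. Hepatocyte libraries 118, 225, 248 and 611 held 9.97, 14.72, 13.67 and 8.69 RPKM. Library 220 was low among hepatocyte-derived ductal cells and library 225 high among cholangiocyte-derived ductal cells, so the ductal groups overlapped, and both lay above all hepatocyte libraries.

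**Figure D1:**
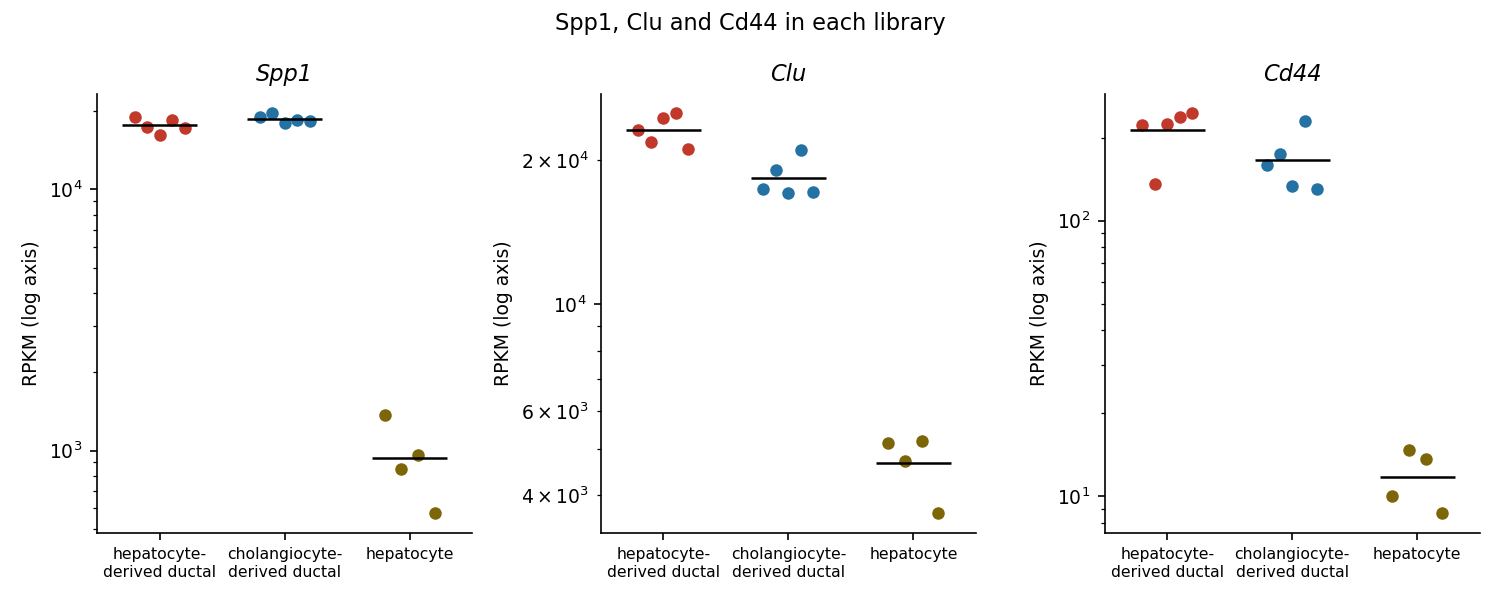
Spp1, Clu and Cd44 in RPKM (log axis) by population; each point is a library and each line a group mean. The ductal groups overlap for Spp1 and Cd44, Clu is at 21114.17 RPKM or more in each hepatocyte-derived ductal library and at most 21007.77 RPKM in a cholangiocyte-derived one, and hepatocytes lie lowest in all 3 panels.

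Mean Cd44 was 213.4 ± 44.3 RPKM in hepatocyte-derived ductal cells, 165.5 ± 40.1 RPKM in cholangiocyte-derived ductal cells and 11.8 ± 2.89 RPKM in hepatocytes. The ratios to hepatocytes were 18.1 for hepatocyte-derived and 14.1 for cholangiocyte-derived ductal cells, and the ratio between the ductal groups was 1.29. That last ratio depends on the transcript row. In the lowest of the 6 Cd44 rows the means were closer, at 178.7 RPKM in hepatocyte-derived and 150.8 RPKM in cholangiocyte-derived ductal cells. The log2 difference between the ductal groups was 0.37 with all libraries, 0.52 without hepatocyte-derived library 220 and 0.49 without cholangiocyte-derived library 225. Library 220 had the highest hepatocyte marker sum among hepatocyte-derived ductal libraries (9445.3 RPKM), and its bearing on Cd44 was not tested. The coefficient of variation of Cd44 was 20.7% in hepatocyte-derived and 24.2% in cholangiocyte-derived ductal cells, against medians of 9.45% and 9.29% for the symbols within 2-fold of its mean. In hepatocyte-derived ductal cells this spread rested on library 220, as it was 4.65% without it. In cholangiocyte-derived ductal cells it fell to 13.8% without library 225, still above the median of 9.29%. In the 3 same-numbered pairs of ductal libraries, 219, 225 and 611, Cd44 differed by 0.35, -0.03 and 0.90 on the log2 scale, hepatocyte-derived minus cholangiocyte-derived. Leukocytes also carry CD44. Library 219, with the lowest macrophage sums of both ductal groups, held 222.48 RPKM in hepatocyte-derived and 174.25 RPKM in cholangiocyte-derived ductal cells.

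All 3 genes were higher in both ductal groups than in hepatocytes with no overlap of libraries. This held for 59.9% of the 12638 tested symbols in hepatocyte-derived ductal cells against hepatocytes and for 60.5% in cholangiocyte-derived ductal cells against hepatocytes. Between hepatocyte-derived and cholangiocyte-derived ductal cells 13.4% of symbols were higher without overlap, Clu among them, and 20.4% lower. The members were chosen on these contrasts, so nothing is read from these counts. By size of the log2 difference to hepatocytes, 97 symbols exceeded Spp1, 109 exceeded Cd44 and 755 exceeded Clu in hepatocyte-derived ductal cells. The same counts for cholangiocyte-derived ductal cells were 227, 449 and 1822. The median log2 difference of all tested symbols to hepatocytes was 0.67 for hepatocyte-derived and 0.76 for cholangiocyte-derived ductal cells, and -0.03 between the ductal groups. Part of that shift depends on scaling, since median-ratio scaling lowered the first pair to 0.147 and 0.231.

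The table lists 6 Cd44 transcripts over the same span, and their rows differed between the ductal groups in a way the gene level did not show. The transcripts share a constant part and differ in a block of 10 variable exons, v1 to v10, of which NM_001039151 holds none and NM_009851 all 10. Known functions differ with the block, as variable exons add binding sites to the stem, and epithelial cells are known for keeping them. The transcript sequence at the joint without variable exons, and the start of the block in a transcript that keeps v8 to v10, with v8 and v9 in capitals, are shown because reads over these exons set the groups apart (GENCODE vM21, GRCm38, minus strand, introns left out, chr2:102828587-102853038 and chr2:102832483-102853038).
Cd44 joint without variable exons: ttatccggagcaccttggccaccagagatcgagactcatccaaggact
Cd44 from the constant part to the end of v9: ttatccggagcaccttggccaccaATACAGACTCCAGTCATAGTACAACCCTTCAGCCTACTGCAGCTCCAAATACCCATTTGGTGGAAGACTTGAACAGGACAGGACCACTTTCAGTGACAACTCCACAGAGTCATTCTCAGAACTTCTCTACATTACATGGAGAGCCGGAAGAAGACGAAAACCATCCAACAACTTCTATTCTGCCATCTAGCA
The RPKM of a row is divided by the length of its transcript, so the row without variable exons exceeds the row with all of them when few reads lie in the block. With no read there the ratio of the 2 rows would be 1.285, given the lengths in GENCODE and if each row counted all reads in its exons.

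The ratio of the row without to the row with all variable exons was 1.195, 1.196, 1.19, 1.193 and 1.197 in hepatocyte-derived ductal libraries 219, 220, 225, 248 and 611. It was 1.092, 1.108, 1.091, 1.105 and 1.082 in cholangiocyte-derived ductal libraries 118, 219, 220, 225 and 611. Hepatocyte libraries 118, 225, 248 and 611 had 1.157, 1.092, 1.105 and 1.103. The ductal groups were apart in every library, with means of 1.194 ± 0.0029 in hepatocyte-derived and 1.096 ± 0.0107 in cholangiocyte-derived ductal cells. Hepatocytes overlapped the cholangiocyte-derived ductal cells and lay below all hepatocyte-derived ductal libraries.

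The same ratio was formed, from the highest to the lowest row, for the 853 symbols with several rows at 1 locus and at least 1 RPKM in every library. It was higher in hepatocyte-derived than in cholangiocyte-derived ductal cells without overlap for 15 of them, or 1.76%, and apart in either direction for 3.63%. The log2 difference of the Cd44 ratio was 0.124, against a median absolute difference of 0.002, and 1 symbol, Prg4, named after its values were seen, had a larger one. Symbols differ in how much sequence their rows do not share, so this rank is a description, and the Cd44 rows were examined after their values were seen. The difference between the ductal groups was 0.098 with all libraries, 0.096 on leaving out the 3 libraries named above and 0.099 in the 8 libraries that share 1 style of column name, whose meaning is not stated. Library 219, the lowest in macrophage markers, had 1.195 in hepatocyte-derived and 1.108 in cholangiocyte-derived ductal cells. Hepatocyte library 118, with the high macrophage sum, had the highest hepatocyte ratio, and the part of other cells in it was not tested.

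Stepping through the 6 rows gave an estimate of the read density over parts of the block, as a percentage of the row without variable exons. Over v9 and v10 hepatocyte-derived ductal cells had 33.3 ± 1.94%, cholangiocyte-derived ductal cells 101.6 ± 8.77% and hepatocytes 77.8 ± 17.8%. Over v8 it was 40.1%, 115.7% and 103.3% on average in the same order, and over v6 and v7 27.4%, 70.9% and 64.4%. The 3 groups came closer towards the start of the block. Over v4 and v5 the means were 23.5%, 32.0% and 34.3%, and over v1 to v3 they were 19.1%, 23.4% and 26.7%. The ductal groups did not overlap in any of the 5 stretches.

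**Figure D2:**
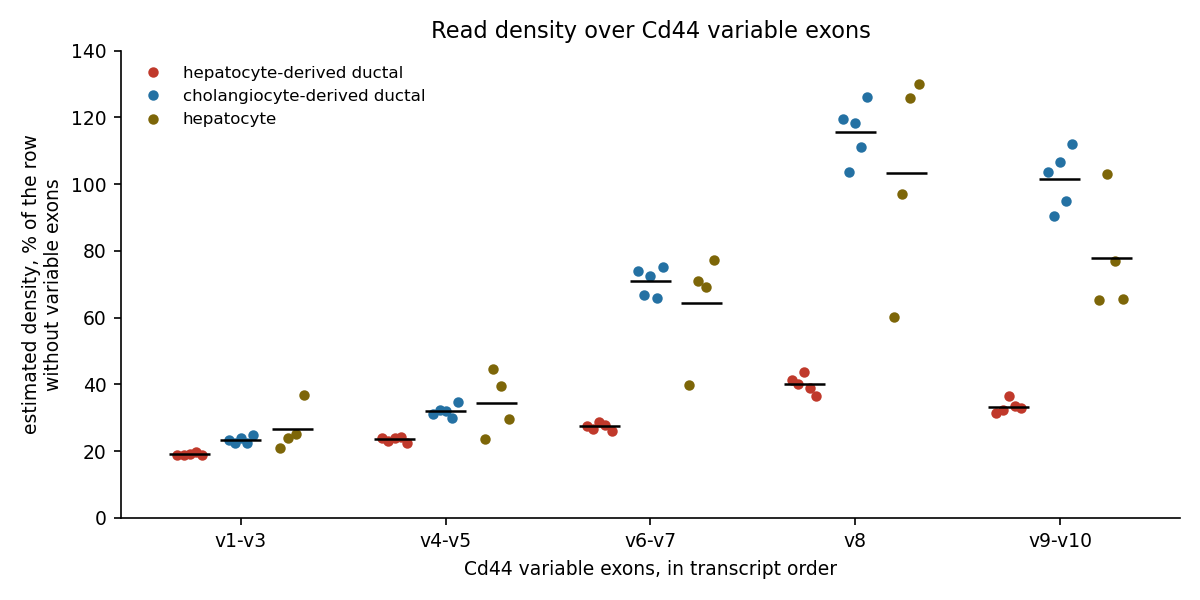
Estimated read density over Cd44 variable exons, in transcript order, as a percentage of the row without them; each point is a library and each line a group mean. Over v9 and v10 the hepatocyte-derived ductal libraries lie at 31.3 to 36.4%, the cholangiocyte-derived ductal libraries at 90.6 to 112.1% and hepatocytes at 65.3 to 103.2%.

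In absolute density, v9 and v10 stood at 69.62, 43.8, 81.85, 80.28 and 80.72 RPKM in hepatocyte-derived ductal libraries 219, 220, 225, 248 and 611. They stood at 164.52, 157.91, 143.19, 218.08 and 146.67 RPKM in cholangiocyte-derived ductal libraries 118, 219, 220, 225 and 611. Hepatocytes had 6.51, 15.19, 10.53 and 5.71 RPKM in libraries 118, 225, 248 and 611, where few reads make the percentages less precise. The v9 and v10 stretch was less dense in every hepatocyte-derived than in every cholangiocyte-derived ductal library, although total Cd44 was not. The estimate assumes that each row counted all reads in its exons, which is not given in the sources used here, and a constant part of 4369 nt taken from GENCODE. With a constant part 500 nt shorter or longer, the v9 and v10 mean was 40.4% or 26.1% in hepatocyte-derived and 101.5% or 101.8% in cholangiocyte-derived ductal cells. The row ratio as a number needs neither. Reading it as reads in the block needs the first, and the value of 1.285 with no read there needs both.

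Among 13 listed regulators of Cd44 splicing, all tested with limma on log2(RPKM + 1), Esrp1 differed most between the ductal groups. Esrp1 and Esrp2 are epithelial splicing regulators known to favour the variable exons of Cd44. Whether their levels bear on the Cd44 rows in these libraries was not tested. Esrp1 was at 0.43, 0.97, 0.1, 0.35 and 1.32 RPKM in hepatocyte-derived ductal libraries 219, 220, 225, 248 and 611. It was at 30.92, 29.09, 32.53, 33.75 and 32.88 RPKM in cholangiocyte-derived ductal libraries 118, 219, 220, 225 and 611, and at 0.32, 0.0, 0.01 and 0.03 RPKM in hepatocyte libraries 118, 225, 248 and 611. The ductal groups were far apart (log2 difference -4.38 ± 0.17 SE, limma adjusted p = 2.06e-10). Against hepatocytes, hepatocyte-derived ductal cells were higher (0.54 ± 0.18, limma adjusted p = 0.0125), a call lost with a pseudocount of 5 or quantile normalization. They overlapped only hepatocyte library 118, the one with the highest macrophage and biliary markers of its group. Esrp2, named after its values were seen, was at 19.1 ± 3.95 RPKM in hepatocyte-derived ductal cells, 29.4 ± 3.4 RPKM in cholangiocyte-derived ductal cells and 32.8 ± 7.18 RPKM in hepatocytes. It was lower in hepatocyte-derived than in cholangiocyte-derived ductal cells (-0.61 ± 0.15, limma adjusted p = 0.00425). Cholangiocyte-derived ductal cells did not pass the test against hepatocytes for Esrp2 as reported (-0.13, limma adjusted p = 0.439), but were lower under median-ratio scaling (-0.76, limma adjusted p = 0.000748) and quantile normalization (-0.52, limma adjusted p = 0.00937).

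**Figure D3:**
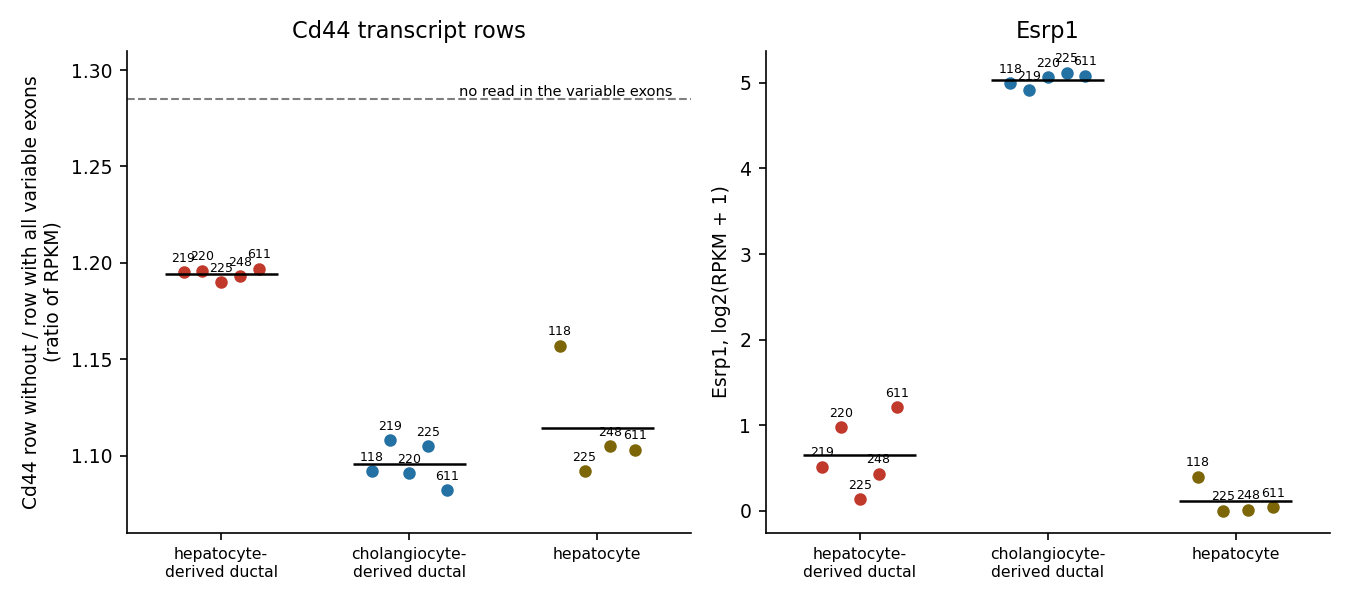
Left, ratio of the RPKM of the Cd44 row without variable exons to that of the row with all 10. The dashed line marks the ratio with no read in them (1.285, if each row counted all reads in its exons), and the axis does not start at 0. Right, Esrp1 as log2(RPKM + 1). Points are libraries with their numbers, and lines are group means. Hepatocyte-derived ductal cells have the highest ratios and under 1.5 RPKM of Esrp1, while hepatocytes combine low Esrp1 with ratios of 1.092 to 1.157. A link between the 2 panels was not tested.

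Of these 13 regulators 12 rose and 1 fell in hepatocyte-derived ductal cells against hepatocytes, where 66.2% of all tested symbols rose and 14.8% fell. In cholangiocyte-derived ductal cells against hepatocytes 12 rose, against 67.1% of all symbols. Between hepatocyte-derived and cholangiocyte-derived ductal cells 1 was higher and 4 lower, against 15.1% and 21.0%. Khdrbs1, which encodes the splicing regulator Sam68, stood at 63.3 ± 2.44 RPKM in hepatocyte-derived and 62.5 ± 2.89 RPKM in cholangiocyte-derived ductal cells, against 15.4 ± 0.525 RPKM in hepatocytes. Rbfox2, another splicing factor, was higher in hepatocyte-derived than in cholangiocyte-derived ductal cells, at 28.0 ± 2.07 against 21.0 ± 0.999 RPKM (limma adjusted p = 0.00232). The splicing repressor Ptbp1 was at 108.9 ± 3.74 and 129.3 ± 6.44 RPKM in the same groups, a call (limma adjusted p = 0.0237) that was lost with the library number as a block (limma adjusted p = 0.101) and on leaving out hepatocyte-derived library 219 or cholangiocyte-derived library 118 or 220 (limma adjusted p = 0.0565 to 0.0625).

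Over all listed genes of the osteopontin, clusterin and CD44 systems other than the 3 members, 103 of the 123 found in the table passed the filter on low values. In hepatocyte-derived ductal cells against hepatocytes 67 were higher and 19 lower by limma (adjusted p under 0.05), against 66.2% higher and 14.8% lower among all tested symbols. Median-ratio scaling made this 53 and 26, against 43.2% and 31.1% of all symbols, and quantile normalization 51 and 23, against 38.0% and 31.2%. In cholangiocyte-derived ductal cells against hepatocytes 72 were higher and 20 lower, against 67.1% and 17.4% of all symbols, and quantile normalization made this 55 and 26, against 39.8% and 36.6%. Between hepatocyte-derived and cholangiocyte-derived ductal cells 23 were higher and 26 lower, against 15.1% and 21.0% of all symbols. As reported, the shares of the listed genes were 65.0% and 18.4%, 69.9% and 19.4%, and 22.3% and 25.2% in these comparisons. How near they lie to the shares of all symbols depends on the scaling.

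Of 11 listed integrin chains that bind osteopontin, 9 were tested, of which 7 rose in hepatocyte-derived and 9 in cholangiocyte-derived ductal cells against hepatocytes, where 66.2% and 67.1% of all symbols did. The median log2 differences were 0.76 and 1.75, against 0.67 and 0.76 for all symbols, so the hepatocyte-derived values were near the background. Itgb8, which pairs with the αv chain, was at 17.8 ± 2.18 RPKM in hepatocyte-derived ductal cells, 20.8 ± 4.89 RPKM in cholangiocyte-derived ductal cells and 0.17 ± 0.143 RPKM in hepatocytes. The αv chain itself, Itgav, named after its values were seen, was at 118.4 ± 44.4, 118.7 ± 25.7 and 20.3 ± 7.36 RPKM in the same order. Itga5, the α chain of the fibronectin receptor, was at 51.2 ± 4.74, 43.1 ± 4.53 and 12.4 ± 3.79 RPKM. For these 3 genes both ductal groups were higher than hepatocytes, and none passed the test between the ductal groups.

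Itgb6 was 1 of 3 integrin chains, with Itga8 and Itga9, that were lower in hepatocyte-derived than in cholangiocyte-derived ductal cells. It encodes the β6 chain of an epithelial αv integrin. It was at 0.96, 0.76, 0.42, 0.71 and 1.82 RPKM in hepatocyte-derived ductal libraries 219, 220, 225, 248 and 611, and at 23.99, 31.91, 23.58, 46.06 and 36.88 RPKM in cholangiocyte-derived ductal libraries 118, 219, 220, 225 and 611. Hepatocytes had at most 0.4 RPKM. The ductal groups did not overlap (-4.11 ± 0.20, limma adjusted p = 1.82e-09), and hepatocyte-derived ductal cells differed from hepatocytes by 0.74 ± 0.21 (limma adjusted p = 0.00539), a call lost with a pseudocount of 5 or quantile normalization. Itgb1, the common β1 chain, was at 174.6 ± 18.7 RPKM in hepatocyte-derived ductal cells, 180.2 ± 11.6 RPKM in cholangiocyte-derived ductal cells and 102.8 ± 8.13 RPKM in hepatocytes, and both its calls against hepatocytes were lost under median-ratio scaling (limma adjusted p = 0.22 and 0.0656).

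Of 10 tested enzymes that cut, cross-link or phosphorylate osteopontin, 3 rose and 4 fell in hepatocyte-derived ductal cells against hepatocytes, 5 rose and 3 fell in cholangiocyte-derived ductal cells against hepatocytes, and 4 were higher and 3 lower in hepatocyte-derived than in cholangiocyte-derived ductal cells. The shares over all symbols were 66.2% and 14.8%, 67.1% and 17.4%, and 15.1% and 21.0%. Thrombin, encoded by F2, cuts osteopontin just behind the motif printed above, and F2 was at 170.5 ± 34.6 RPKM in hepatocyte-derived ductal cells, 48.7 ± 17.8 RPKM in cholangiocyte-derived ductal cells and 1137.3 ± 101.2 RPKM in hepatocytes. Plg (plasminogen) was at 128.2 ± 35.5, 45.3 ± 9.46 and 1087.2 ± 197.9 RPKM, and Cpb2, a plasma carboxypeptidase that trims thrombin-cut osteopontin, at 109.2 ± 19.2, 24.4 ± 11.9 and 495.2 ± 66.1 RPKM. All 3 transcripts, made by hepatocytes for plasma, were lower in both ductal groups than in hepatocytes and higher in hepatocyte-derived than in cholangiocyte-derived ductal cells (log2 differences 1.88, 1.47 and 2.30, limma adjusted p at most 8.63e-05).

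The matrix metalloproteinase Mmp7, which also cuts osteopontin and was named after its values were seen, had the opposite order. It was at 6.67, 13.47, 3.43, 8.94 and 25.3 RPKM in hepatocyte-derived ductal libraries 219, 220, 225, 248 and 611 and at 845.44, 472.34, 582.72, 1016.45 and 1152.6 RPKM in cholangiocyte-derived ductal libraries 118, 219, 220, 225 and 611. Hepatocyte libraries 118, 225, 248 and 611 had 18.32, 0.0, 0.2 and 1.11 RPKM. The ductal groups did not overlap (-6.20 ± 0.69, limma adjusted p = 6.04e-06), whereas the call of hepatocyte-derived ductal cells against hepatocytes (limma adjusted p = 0.0216) was lost in 8 alternatives, among them leaving out hepatocyte library 225, 248 or 611 or hepatocyte-derived library 611. Tgm2, a transglutaminase that cross-links osteopontin, was at 275.5 ± 7.65 RPKM in hepatocyte-derived ductal cells, 336.2 ± 12.5 RPKM in cholangiocyte-derived ductal cells and 174.3 ± 21.2 RPKM in hepatocytes, and its call for hepatocyte-derived ductal cells against hepatocytes was lost under median-ratio scaling (limma adjusted p = 0.856). The relatives of osteopontin in the SIBLING family of bone and tooth matrix proteins, Ibsp, Dmp1, Mepe and Dspp, were at 0.02 RPKM or less in all 14 libraries.

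**Figure D4:**
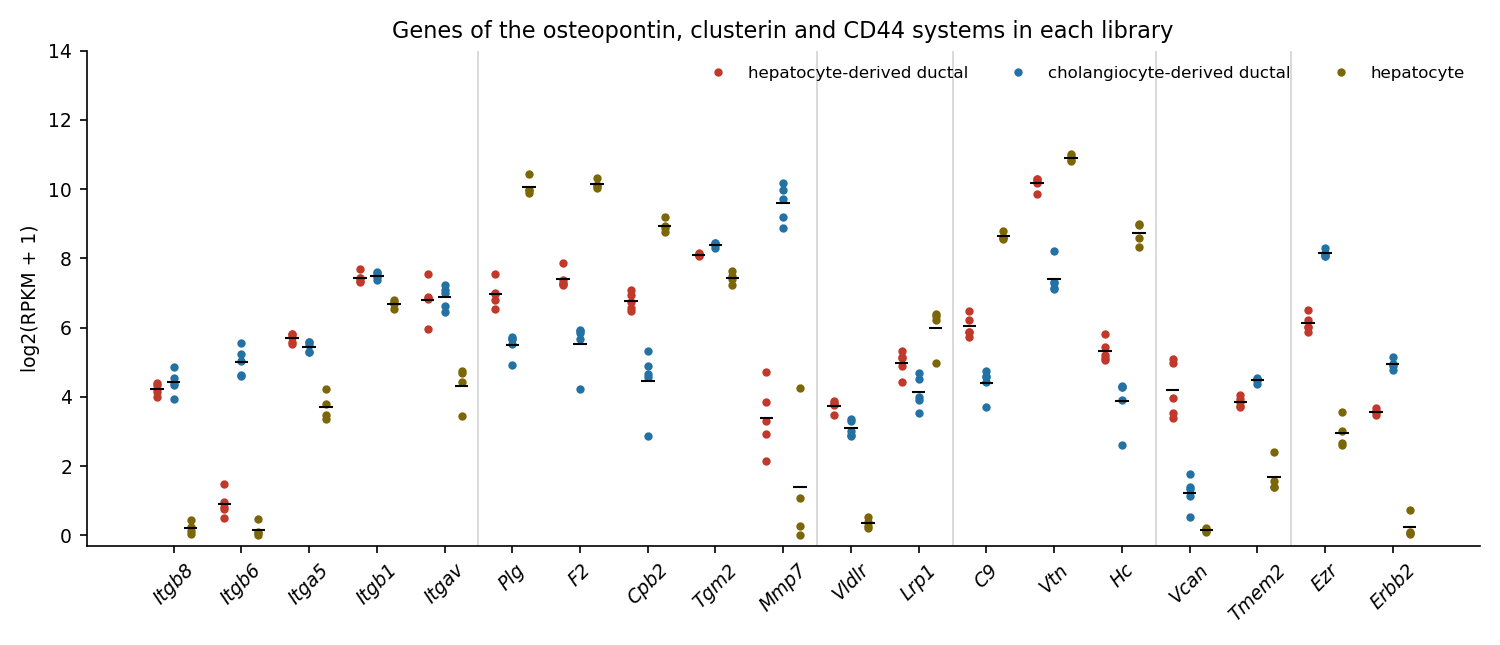
Genes of the osteopontin, clusterin and CD44 systems as log2(RPKM + 1); each point is a library and each line a group mean, and grey lines part integrins, osteopontin-modifying enzymes, clusterin receptors, terminal complement genes, hyaluronan genes and CD44 partners. Itgb6 (32.5 RPKM on average in cholangiocyte-derived ductal cells) and Mmp7 (813.9 RPKM) stand far above hepatocyte-derived ductal cells (0.934 and 11.6 RPKM), and Vcan has the reverse order (19.7 RPKM in hepatocyte-derived and 1.45 RPKM in cholangiocyte-derived ductal cells).

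Of 26 tested transcription factors with a reported role at Spp1 or Clu, 24 rose in hepatocyte-derived ductal cells against hepatocytes and 25 rose and 1 fell in cholangiocyte-derived ductal cells, where 66.2% and 67.1% of all symbols rose. The median log2 differences were 1.45 and 1.81, against 0.67 and 0.76 over all symbols. Between hepatocyte-derived and cholangiocyte-derived ductal cells 2 were higher and 7 lower, against 15.1% and 21.0% of all symbols. Tead2, a DNA-binding partner of YAP, was at 50.4 ± 4.13 RPKM in hepatocyte-derived ductal cells, 27.0 ± 3.65 RPKM in cholangiocyte-derived ductal cells and 0.447 ± 0.377 RPKM in hepatocytes, and was higher in the first than in the second (0.88 ± 0.13, limma adjusted p = 0.000101). Its relative Tead3 had the reverse order in the ductal cells, at 12.6 ± 0.343, 21.1 ± 0.78 and 5.33 ± 1.07 RPKM. Tead4 was at 7.27 ± 0.962, 6.17 ± 0.922 and 0.275 ± 0.0681 RPKM, and the YAP relative TAZ, encoded by Wwtr1, at 33.1 ± 1.96, 31.9 ± 1.97 and 10.6 ± 0.995 RPKM. Both rose in each ductal group against hepatocytes and did not pass the test between the ductal groups.

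The Spp1 promoter, from 250 bases before to 50 bases after the start in RefSeq, is shown because RUNX and ETS factors are known to act on it, with a match to TGTGGT on the other strand and a match to GGAAGT in capitals (GRCm38.p6, chr5:104434861-104435160, plus strand).
Spp1 promoter: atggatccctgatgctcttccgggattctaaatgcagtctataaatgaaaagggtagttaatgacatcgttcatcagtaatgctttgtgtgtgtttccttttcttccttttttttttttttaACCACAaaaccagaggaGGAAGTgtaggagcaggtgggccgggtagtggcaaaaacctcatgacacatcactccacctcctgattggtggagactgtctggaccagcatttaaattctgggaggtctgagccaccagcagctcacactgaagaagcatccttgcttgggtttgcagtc
The RUNX match begins at position -128 and the ETS match at position -111 from the start. On either strand these motifs occur in 16.8% and 23.8% of the 32851 promoters of the same length, and they do not overlap each other. The AP-1 motif TGANTCA, the TEAD motif GGAATG, the heat shock element and the RBPJ motif TGGGAA had no match in this window on either strand. Of the factors, Runx1, named after its values were seen, was at 0.69 ± 0.185 RPKM in hepatocyte-derived ductal cells, 2.92 ± 0.84 RPKM in cholangiocyte-derived ductal cells and 0.105 ± 0.144 RPKM in hepatocytes. Ets1, named likewise, was at 26.8 ± 8.25, 29.5 ± 5.27 and 2.47 ± 2.16 RPKM. The ductal groups differed for Runx1 (-1.19 ± 0.14, limma adjusted p = 8.75e-06), while Ets1 did not pass that test (-0.17, limma adjusted p = 0.691).

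Clusterin receptors were few among the transcripts. Of 6 listed, 3 passed the filter, and Lrp2 (megalin), Lrp8 and Plxna4 stayed at 1.05 RPKM or less in every library. Vldlr, a lipoprotein receptor, was at 13.63, 12.75, 12.83, 13.17 and 10.08 RPKM in hepatocyte-derived ductal libraries 219, 220, 225, 248 and 611. It was at 7.1, 9.39, 8.84, 6.33 and 6.48 RPKM in cholangiocyte-derived ductal libraries 118, 219, 220, 225 and 611, and at 0.45 RPKM or less in hepatocytes. The groups did not overlap, and Vldlr was higher in hepatocyte-derived than in cholangiocyte-derived ductal cells (0.65 ± 0.12, limma adjusted p = 0.000463). Lrp1, a scavenger receptor of hepatocytes, was at 31.3 ± 7.12 RPKM in hepatocyte-derived ductal cells, 17.3 ± 5.9 RPKM in cholangiocyte-derived ductal cells and 67.0 ± 24.6 RPKM in hepatocytes, and fell in both ductal groups against hepatocytes. Its difference between the ductal groups (limma adjusted p = 0.03) was lost with the library number as a block (limma adjusted p = 0.151) and on leaving out hepatocyte-derived library 220, 225 or 248 or cholangiocyte-derived library 219, 225 or 611 (limma adjusted p = 0.0616 to 0.0809). Trem2, a receptor of macrophages, was at 1.58 ± 1.07, 2.73 ± 2.15 and 4.95 ± 9.48 RPKM, with 19.18 RPKM in hepatocyte library 118 and at most 0.24 RPKM in the other hepatocyte libraries. The cholangiocyte-derived ductal cells passed the test against hepatocytes without that library (limma adjusted p = 0.0253), but not with it (limma adjusted p = 0.684).

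The terminal complement genes and their inhibitors, the partners of clusterin in plasma, form a list of which 11 genes were tested. Of these, 9 fell and 1 rose in hepatocyte-derived ductal cells against hepatocytes and 10 fell and 1 rose in cholangiocyte-derived ductal cells, where 14.8% and 17.4% of all symbols fell. The median log2 differences were -2.96 and -4.23. In hepatocyte-derived against cholangiocyte-derived ductal cells 7 were higher, against 15.1% of all symbols, with a median of 0.73 against -0.03 for all symbols. C9, the pore-forming component, was at 66.1 ± 15.2 RPKM in hepatocyte-derived ductal cells, 20.9 ± 5.33 RPKM in cholangiocyte-derived ductal cells and 400.2 ± 30.0 RPKM in hepatocytes. Hc, which encodes C5, had the same order, at 40.1 ± 9.49, 15.1 ± 5.91 and 428.8 ± 88.7 RPKM. Vtn, encoding vitronectin, an Arg-Gly-Asp protein that also holds back the terminal complex, was at 1161.8 ± 131.4 RPKM in hepatocyte-derived ductal cells, 177.8 ± 65.9 RPKM in cholangiocyte-derived ductal cells and 1922.3 ± 128.4 RPKM in hepatocytes. The ductal groups differed by 2.76 ± 0.18 (limma adjusted p = 2.87e-08), while the fall in hepatocyte-derived ductal cells against hepatocytes (-0.73 ± 0.19, adjusted p = 0.00248) turned to 0.41 under quantile normalization.

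The next list holds genes that make, bind or degrade hyaluronan, the other ligand of CD44. Of 11 tested among 16, 5 rose and 1 fell in hepatocyte-derived ductal cells against hepatocytes, 5 rose in cholangiocyte-derived ductal cells, and 2 were higher and 3 lower in hepatocyte-derived than in cholangiocyte-derived ductal cells. The last counts are near the 15.1% and 21.0% of all symbols, while 66.2% and 67.1% of all symbols rose against hepatocytes. Vcan, encoding versican, a hyaluronan-binding proteoglycan, was at 10.7, 9.56, 30.4, 33.44 and 14.56 RPKM in hepatocyte-derived ductal libraries 219, 220, 225, 248 and 611. It was at 1.54, 2.45, 1.65, 1.19 and 0.44 RPKM in cholangiocyte-derived ductal libraries 118, 219, 220, 225 and 611 and at 0.17 RPKM or less in hepatocytes. The ductal groups did not overlap (2.96 ± 0.32, limma adjusted p = 4.25e-06). The call of cholangiocyte-derived ductal cells against hepatocytes (limma adjusted p = 0.00853) was lost with a pseudocount of 5 (limma adjusted p = 0.225) and quantile normalization (limma adjusted p = 0.6). It was also lost on leaving out the 3 libraries with high macrophage or stellate markers (limma adjusted p = 0.0594) and in the libraries of 1 style of column name (limma adjusted p = 0.0818). Tmem2, a cell surface hyaluronidase, was at 13.6 ± 1.4 RPKM in hepatocyte-derived ductal cells, 21.5 ± 1.09 RPKM in cholangiocyte-derived ductal cells and 2.39 ± 1.27 RPKM in hepatocytes, and its difference between the ductal groups (limma adjusted p = 0.00575) was lost with the library number as a block (limma adjusted p = 0.0735). Hyal3 and the hyaluronan receptor Layn were low, at 1.93 and 1.23 RPKM in hepatocyte-derived ductal cells, 3.04 and 1.3 RPKM in cholangiocyte-derived ductal cells and 0.33 and 0.177 RPKM in hepatocytes.

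Partners join CD44 to the cortex or to growth factor signals. Of 11 tested, 8 rose and 2 fell in hepatocyte-derived ductal cells against hepatocytes, 8 rose and 3 fell in cholangiocyte-derived ductal cells, and 3 were higher and 5 lower in hepatocyte-derived than in cholangiocyte-derived ductal cells. Of all symbols 66.2% and 67.1% rose against hepatocytes, and 15.1% were higher and 21.0% lower between the ductal groups. Ezr, encoding ezrin, which ties the CD44 tail to actin, was at 70.1 ± 12.9 RPKM in hepatocyte-derived ductal cells, 282.4 ± 18.8 RPKM in cholangiocyte-derived ductal cells and 7.12 ± 2.59 RPKM in hepatocytes. The receptor tyrosine kinase gene Erbb2 was at 11.0 ± 0.597, 29.9 ± 2.93 and 0.21 ± 0.314 RPKM, and the scaffold gene Iqgap1 at 55.1 ± 7.07, 100.1 ± 6.41 and 10.6 ± 1.6 RPKM. Nf2, encoding merlin, a relative of ezrin, was at 21.8 ± 0.684, 27.5 ± 1.95 and 7.38 ± 0.499 RPKM. All 4 were lower in hepatocyte-derived than in cholangiocyte-derived ductal cells (log2 differences -2.01, -1.36, -0.86 and -0.32, limma adjusted p at most 0.00113), and higher in both than in hepatocytes.

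**Figure D5:**
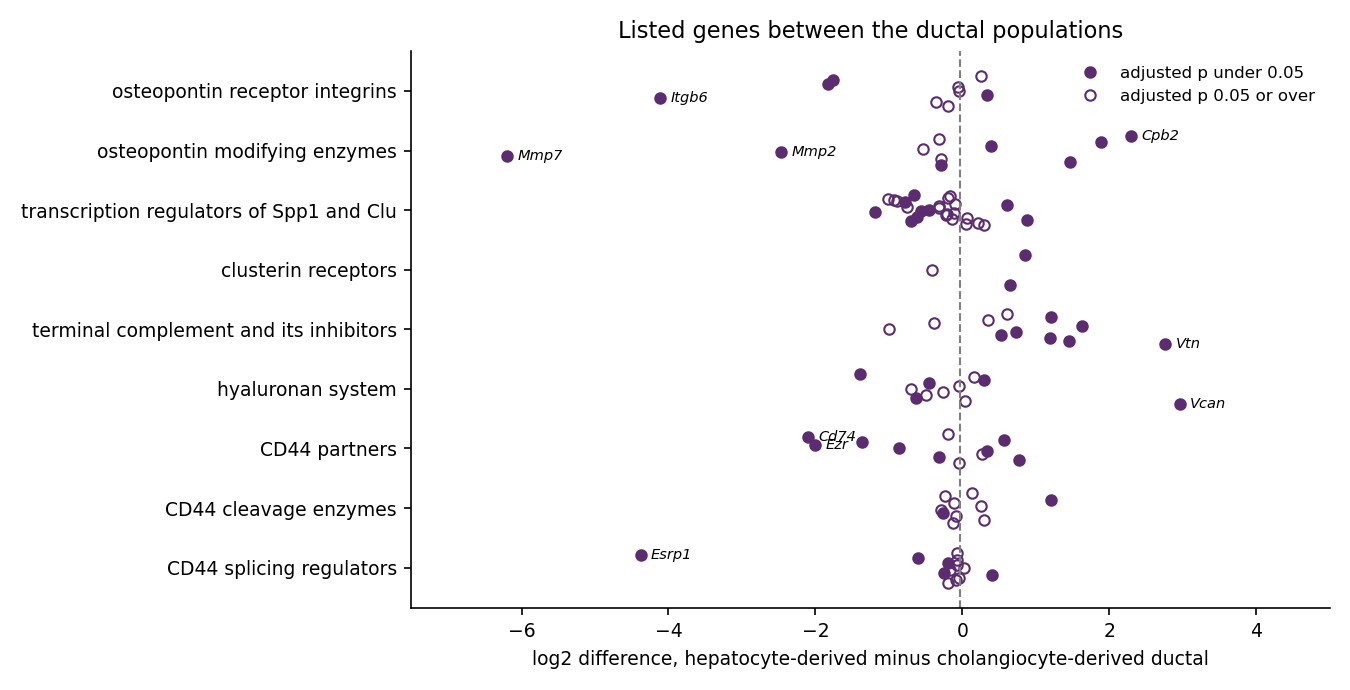
Log2 difference of each tested gene of the lists, hepatocyte-derived minus cholangiocyte-derived ductal cells, with filled points for an adjusted p under 0.05, the dashed line at the median of all tested symbols (-0.03) and names where the difference exceeds 2 in size. Mmp7 (-6.20), Esrp1 (-4.38) and Itgb6 (-4.11) lie farthest to the left and Vcan (2.96) and Vtn (2.76) farthest to the right.

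Of 10 tested enzymes that cut CD44 at the membrane, 6 rose and 1 fell in hepatocyte-derived ductal cells against hepatocytes, 7 rose and 2 fell in cholangiocyte-derived ductal cells, and 1 was higher and 1 lower in hepatocyte-derived than in cholangiocyte-derived ductal cells. Of all symbols 66.2% and 67.1% rose against hepatocytes, near the share of these enzymes, and 15.1% were higher and 21.0% lower between the ductal groups. Mmp14, a membrane-bound metalloproteinase that sheds CD44, was at 181.9 ± 10.7 RPKM in hepatocyte-derived ductal cells, 153.1 ± 19.2 RPKM in cholangiocyte-derived ductal cells and 44.5 ± 8.89 RPKM in hepatocytes. The sheddase gene Adam10 was at 61.4 ± 2.87, 56.0 ± 4.53 and 21.8 ± 3.0 RPKM. Of the γ-secretase genes, Ncstn was at 77.2 ± 4.37, 92.4 ± 6.07 and 31.2 ± 2.67 RPKM and Psen2, the one that fell in both ductal groups, at 39.7 ± 2.5, 32.2 ± 4.93 and 160.7 ± 26.2 RPKM.

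The genes whose profiles were most like those of the members were found by the root mean square difference of log2(RPKM + 1) profiles over the 14 libraries, each centred on its mean. For Spp1 these were Ehd2 (a difference of 0.145), Cacnb3 (0.189), Arhgef10 (0.191), Sepn1 (0.200) and Filip1l (0.213). For Clu they were Arhgef3 (0.129), Abcc5 (0.134), Isyna1 (0.144), Zfp184 (0.145) and Add1 (0.151). For Cd44 they were the integrin chain Itga2 (0.265), Zbtb7c (0.289), Heg1 (0.292), Mex3a (0.303) and Cpne8 (0.308). The nearest profiles of Cd44 were thus farther away than those of Spp1 and Clu. Levels differed by orders of magnitude, as Ehd2 averaged 41.3 RPKM in hepatocyte-derived ductal cells, 47.5 RPKM in cholangiocyte-derived ductal cells and 1.25 RPKM in hepatocytes. Adding 1 before the log compresses low values, so a like profile need not mean a like ratio of RPKM. Mex3a averaged 14.7 RPKM in hepatocyte-derived ductal cells and 0.0925 RPKM in hepatocytes, against 213.4 and 11.8 RPKM for Cd44.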

How the data were processed

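RNA was measured in 14 libraries, 5 of hepatocyte-derived ductal cells, 5 of cholangiocyte-derived ductal cells and 4 of hepatocytes. Per the labels' protocols, cells came from collagenase digests, and 75 to 200 ng of RNA went into the Illumina TruSeq RNA kit, version 2, which does not mark the strand. Cd44 overlaps the small RNA gene Gm23731 on the other strand, and Spp1 overlaps the provisional gene Gm42793 on its own strand. Strand therefore cannot tell apart reads over sequence shared within either pair. Whether the overlaps lie in exons was not examined.

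The authors deposited RPKM values (reads scaled to transcript length and library size) for 26005 transcript rows, rounded to 2 decimals. Bowtie 0.12.7, CASAVA and build mm9 are named in the submitters' processing notes, and the counting method is not given in the sources used here. For 12 columns the name matched 1 title. The other 2 carry the number 220 where the titles carry 120, and were matched to their group only. The design text gives 3 hepatocyte samples, and 4 were used.

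Each of the 20377 symbols was represented by its row with the highest mean. A symbol was tested if 4 or more libraries reached 1 RPKM, which 12638 did. The test was limma 3.58.1 (R 4.3.3) on log2(RPKM + 1), in 1 model of the 3 groups with a mean-variance trend, two-sided, with Benjamini-Hochberg adjustment over all of them and a threshold of 0.05. Differences on this scale understate the change of low genes, while ratios compare mean RPKM. Reads per library, estimated from the smallest steps between values, were 19400000 to 27600000, so low values carry counting and rounding error. The estimate of reads is rough, as its fit scored 0.2612 to 0.3774, where 1 would be a perfect fit. The limma fit was tested on simulated data. Tables and plots were made with matplotlib 3.10.9, pandas 2.3.3 and numpy 2.4.6 under Python 3.11.15.

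The members, the lists of listed genes and the markers were chosen with earlier results of these data known. Named are the 3 members, up to 4 genes per list with the smallest adjusted p, uncalled genes of lists of up to 6, the 5 most alike profiles per member, the most abundant gene of a marker list and symbols ranked above Spp1. Genes named outside this rule are said to be, and 1 gene that the rule names is not reported here. Sequences come from GENCODE vM21 transcripts and RefSeq promoters, which matched Spp1 and Cd44, both on GRCm38, a build other than that of the table. Alternatives were other pseudocounts, scalings and filters, summed rows, left-out libraries, and the library number as a block. Deviations from the group mean correlated between same-numbered ductal libraries at r = 0.797, 0.212 and 0.424 in 3 pairs. The 2 columns numbered 220, matched to group only, were not counted as a pair and had r = 0.428. Between cholangiocyte-derived ductal cells and hepatocytes r was 0.512, 0.133 and 0.225, and between hepatocyte-derived ductal cells and hepatocytes 0.129, 0.021 and 0.193. Libraries of different numbers ranged from -0.564 to 0.464, -0.467 to 0.458 and -0.357 to 0.437 in these comparisons. Only the same-numbered values of 0.797 and 0.512 lay above those ranges.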

Additional observations from a re-analysis of the deposited data

Results flagged for a closer look

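Of 132 gene-by-group sets of library values, 20 had a highest or lowest library far from the others by Dixon's criterion, which chance meets in about 1 in 20 sets.

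One of them is a member. Cd44 in hepatocyte-derived ductal library 220 was at 136.02 RPKM, against 222.48 to 245.05 RPKM in the other 4. The same library had the highest F2 of its group (231.49 RPKM) and the highest Esrp2 (25.83 RPKM), and its Cd44 row ratio of 1.196 lay within the range of the others. Its hepatocyte marker sum was the highest of its group, 9445.3 RPKM against 4664.3 to 6692.7 RPKM. Its biliary marker sum was the lowest, 791.8 RPKM against 888.5 to 1154.9 RPKM. Whether these bear on its Cd44 value was not tested.

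Hepatocyte library 118 had the highest macrophage, endothelial, stellate and biliary markers of its group. It was the highest of its group for Trem2 (19.18 RPKM), Mmp7 (18.32 RPKM), Tmem2 (4.28 RPKM), Erbb2 (0.68 RPKM), Layn (0.6 RPKM), Esrp1 (0.32 RPKM) and Runx1 (0.32 RPKM), and the lowest for Ptbp1 (35.48 RPKM). The part of other cells, ductal cells included, in these values was not tested. Hepatocyte library 611 was highest for Plg (1381.33 RPKM).

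In hepatocyte-derived ductal cells, library 611 was highest for Itgb1 (206.75 RPKM) and lowest for Vldlr (10.08 RPKM), and library 219 was lowest for Vtn (935.92 RPKM). In cholangiocyte-derived ductal cells, library 219 was highest for Tead2 (33.28 RPKM) and Vtn (294.67 RPKM) and lowest for Tmem2 (19.61 RPKM), library 611 was lowest for F2 (17.73 RPKM) and library 225 was highest for Psen2 (40.83 RPKM).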

How the results depend on the processing

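The log2 differences of the 3 members kept their sign under every alternative run. Their size against hepatocytes depended on scaling. For hepatocyte-derived ductal cells, median-ratio scaling gave 3.64 for Spp1, 1.66 for Clu and 3.45 for Cd44, and quantile normalization gave 4.84, 3.48 and 3.72. For cholangiocyte-derived ductal cells the values were 3.73, 1.33 and 3.09 under median-ratio scaling and 5.25, 3.07 and 3.36 under quantile normalization. A pseudocount of 5 gave 3.69 and 3.33 for Cd44 in the 2 groups, and quantile normalization gave -0.41 for Spp1 between them. Quantile normalization gives every library the same set of values, so a value follows from rank alone. Spp1 and Clu held ranks 1 and 2 in every ductal library, so their normalized values there carry only that order. The cause of the shifts under median-ratio scaling was not tested.

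Leaving out 1 library at a time kept Spp1 at 4.08 to 4.49 in hepatocyte-derived and 4.16 to 4.58 in cholangiocyte-derived ductal cells against hepatocytes, and at -0.11 to -0.05 between the ductal groups, the last without hepatocyte-derived library 225. Clu stayed at 2.2 to 2.37, 1.87 to 2.03 and 0.31 to 0.38, and Cd44 at 3.95 to 4.22, 3.58 to 3.81 and 0.29 to 0.52, in the same order. The Cd44 row ratio difference stayed at 0.073 to 0.094, -0.026 to -0.004 (the last without hepatocyte library 118) and 0.095 to 0.102. Counts of listed genes higher stayed at 66 to 70, 70 to 76 and 21 to 26, and counts lower at 18 to 19, 19 to 20 and 22 to 32.

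With the library number as a replicate block, 71, 72 and 21 listed genes were higher and 19, 19 and 21 lower in these comparisons, and among named genes it ended only the 3 calls between the ductal groups given above, those of Lrp1, Tmem2 and Ptbp1. Column names are written in 2 styles, whose meaning is not stated. With only the 8 libraries of 1 style, chosen after seeing the data, 14 listed genes were lower between the ductal groups in place of 26, from fewer samples, and the members' differences between the ductal groups were -0.10 for Spp1, 0.30 for Clu and 0.44 for Cd44. Reversed values were 0.41 for Vtn under quantile normalization and 1.22 for Trem2 in the libraries of 1 style, both in hepatocyte-derived ductal cells against hepatocytes. Depth limits values near 0, such as Esrp1 and Itgb6 in hepatocytes.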
